A study of Oryza sativa with 12 samples.

Results

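The comparison set 2 rice embryo conditions against each other: embryos with glucose under AC (GlcAC) and embryos with mannitol in air (Mtl). The 4 arrays titled GlcAC and Mtl, 2 for each condition, were taken from the 12 arrays of the series by the condition in their labels. Embryos of the cultivar Dongjin had been removed from whole seeds of Oryza sativa and, per incubation, about 150 to 200 of them were held in darkness at 28 °C for 24 h in 10 mM CaCl2. GlcAC embryos had 60 mM glucose. Mtl embryos had 60 mM mannitol, a sugar alcohol used in place of glucose, and lay on soaked paper in air. The meaning of AC is not written in the labels. It was read as the anaerobic incubation of the protocol, in which embryos were submerged in 50 mL of nitrogen-flushed medium. Glucose, oxygen and submersion therefore all differed between GlcAC and Mtl, and their contributions cannot be told apart from these 2 conditions alone. AC always came with submersion and air never did, so in every comparison of AC with air in this series the lack of oxygen and submersion cannot be told apart. MtlAC (mannitol under AC) and Glc (glucose in air) complete the 4 combinations of sugar and air and served to place both conditions. GlcDNP and MtlDNP embryos, in air with 2,4-dinitrophenol (DNP) at 0.08 mM, an agent that uncouples respiration from ATP synthesis, entered the shared estimate of the spread. The design text calls the replicates technical, so the 2 arrays of a condition may hold the same RNA, and the p-values below measure the spread between arrays only.

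Plant cells without oxygen cannot pass electrons to it through the respiratory chain. They keep making ATP by glycolysis and regenerate NAD+ by turning pyruvate into ethanol through pyruvate decarboxylase and alcohol dehydrogenase. Plant cells without sugar fall back on stored lipid and protein: the glyoxylate cycle lets carbon from fatty acids be used for sugar, and branched-chain amino acids are broken down in mitochondria. In rice embryos both shortages are known to act on the starch-degrading α-amylase RAmy3D through the kinase SnRK1A and the transcription factor MYBS1, and the kinase CIPK15 is known to link oxygen shortage to that route.

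The unit throughout was the log2 expression value of a probe set (called a probe here), from a table that the authors normalized with RMA. The medians of the 12 arrays lay between 3.23 and 3.31. Across all 36643 probes the 2 GlcAC arrays correlated at r = 0.971 and the 2 Mtl arrays at r = 0.976, against 0.947 between the GlcAC mean and the Mtl mean, given as descriptions over probes that are not independent. The lower quartile of the values on the 4 arrays was 2.15, and levels below about that value have little meaning as levels, so the size of a difference with 1 side below it is uncertain. Of the 8 embryo markers, 4 could be matched (OLE18, OSH1, RAB21 and VP1). None of the 4 was below that quartile in both conditions, and their log2 values summed to 20.1 and 19.1 on the GlcAC arrays, against 18.8 and 18.8 on the Mtl arrays. The oil body protein OLE18 read 7.15 and 7.32 in GlcAC and 6.55 and 6.29 in Mtl. GlcAC minus Mtl was 0.52 for VP1, -0.03 for OSH1 and -0.55 for RAB21. Of the 5 matched endosperm markers, 2 were below the quartile in both conditions, and their sums were 10.6 and 11.3 in GlcAC and 11.8 and 12.8 in Mtl. The 3 green shoot markers summed to 6.03 and 6.06 in GlcAC and 7.52 and 6.74 in Mtl, and the 3 of aleurone and scutellum to 6.25 and 6.57 in GlcAC and 7.35 and 6.69 in Mtl. No matched marker of any of these kinds was called different, and the tissue name of the labels was kept.

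GlcAC and Mtl embryos differed at 1896 of 36643 probes (5.17%), of which 627 were higher in GlcAC (1.71% of all probes) and 1269 were lower (3.46%). A call needed an adjusted p below 0.05 in limma together with a difference of 1 or more on the log2 scale, in either direction, which is a fold of 2. A difference of at least 2 on the log2 scale was reached by 123 called probes higher and 248 lower in GlcAC. The other side of the question is similarity. A probe was taken to stand at a similar level when the 95% interval of its difference lay wholly between -1 and 1, and 22576 probes did so (61.6%). The remaining 12171 probes were neither called nor shown to be similar. The median difference over all probes was 0.06 and the median standard error (SE) 0.23. The count of called probes was 1209 without the first Mtl array, where 759 were lower, and the count of lower probes was 806 without the first GlcAC array.

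**Figure D1:**
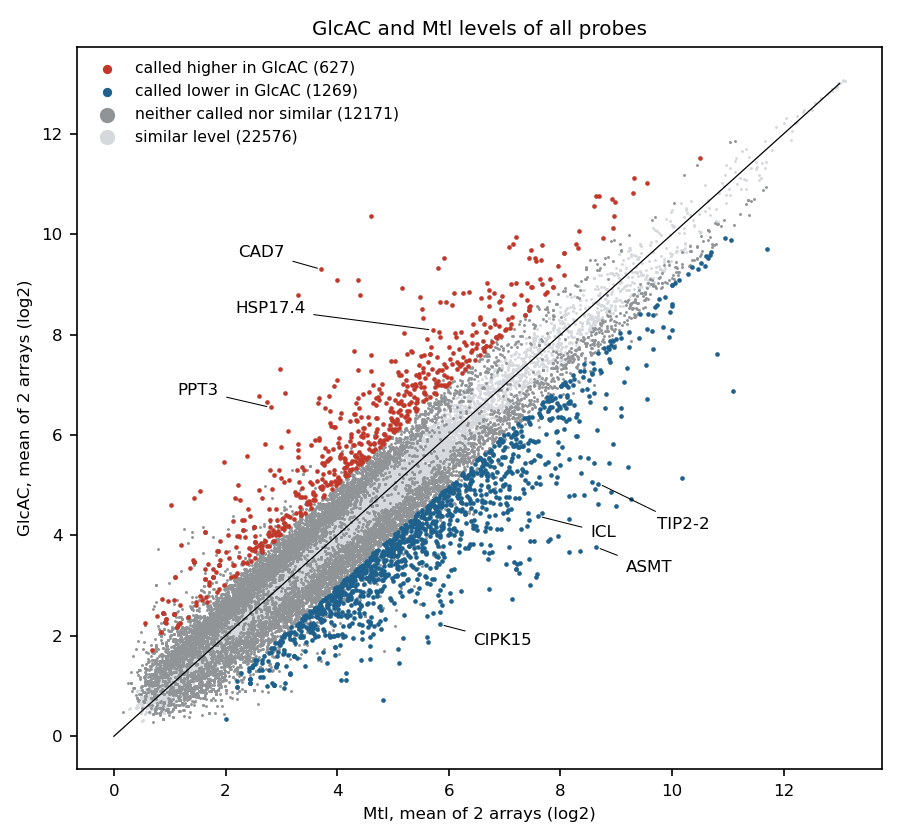
Each point is 1 probe, with its mean log2 expression value over 2 Mtl arrays on the x axis and over 2 GlcAC arrays on the y axis; the line marks equal levels. The 627 probes higher in GlcAC (red) and the 1269 lower (blue) lie off the line at all levels, and the 22576 similar probes (light grey) lie along it.

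Because the 4 combinations of sugar and air were all measured, each difference between GlcAC and Mtl can be written as a sum of 2 parts. The AC part is the mean of the AC-minus-air differences with either sugar and holds lack of oxygen and submersion together, and the sugar part is the mean of the glucose-minus-mannitol differences in air and under AC. Their sum is exactly GlcAC minus Mtl. Each part is a mean of 2 differences, so a small part can also average differences of opposite sign. The AC part was the larger in absolute size for 540 of the 627 higher probes (86.1%) and 1015 of the 1269 lower probes (80.0%), beside 70.5% of all probes. Among higher probes the medians of the parts were 1.25 for AC and 0.16 for sugar, and among lower probes they were -1.21 and -0.27. The sugar part had the opposite sign to the difference itself for 245 higher and 402 lower probes, which means that for these the mean effects of AC and of lacking glucose had the same sign.

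**Figure D2:**
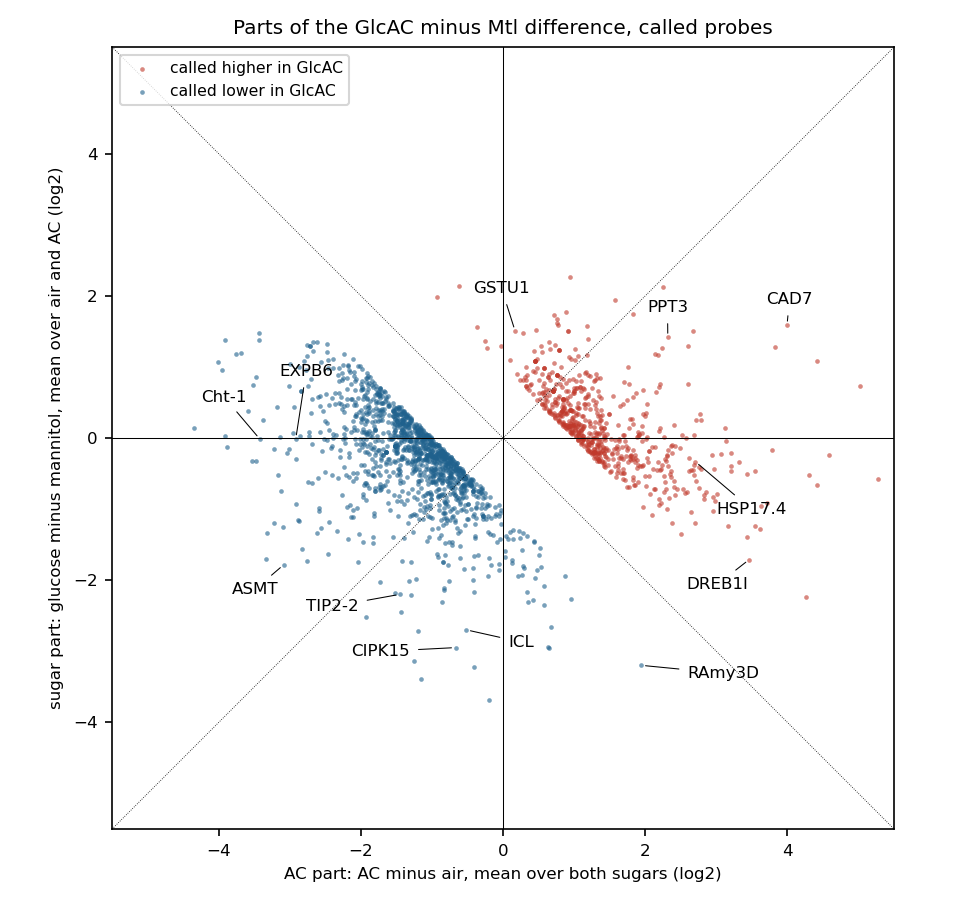
Each point is 1 of the 1896 called probes, placed by its AC part (x axis, log2) and its sugar part (y axis, log2); dotted diagonals mark parts of equal size. HSP17.4 and Cht-1 lie along the AC axis and CIPK15 and ICL along the sugar axis. RAmy3D has a positive AC part of 1.95 and a negative sugar part of -3.20. For CIPK15 and ICL the small AC part averages a higher level under AC with glucose and a lower level under AC with mannitol.

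The levels in MtlAC and Glc sort the called probes in another way, by asking to which of the 2 compared conditions each of these lies nearer. In 440 of the 627 higher probes (70.2%) MtlAC lay with GlcAC and Glc with Mtl, so the probe followed air (against AC with its submersion). Another 30 (4.78%) followed sugar, 91 (14.5%) had GlcAC apart from the other 3 conditions and 66 (10.5%) had Mtl apart. Lower probes were divided differently: 714 (56.3%) followed air, 57 (4.49%) followed sugar, 15 (1.18%) had GlcAC apart and 483 (38.1%) had Mtl apart. Mtl apart means only that Glc and MtlAC were both nearer to GlcAC than to Mtl. A probe sorted so can still have Glc or MtlAC at an intermediate level. Over all probes the shares were 42.6%, 13.5%, 15.6% and 28.2% in that order. These shares are descriptions, since the GlcAC and Mtl values enter both the call and the sorting.

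The genes of ethanol fermentation were higher in GlcAC at 2 of the 3 probes that could be named (66.7%, beside 1.71% of all probes). Adh2 (LOC4350054), an alcohol dehydrogenase, had values of 4.08 and 3.89 in GlcAC, against 2.18 and 2.25 in Mtl, a difference of 1.77 ± 0.20 (SE, n = 2 arrays each; adjusted p = 0.000583). It was also low in Glc (2.34 and 2.55) and high in MtlAC (3.70 and 3.16). The Adh2 values of Mtl lay around the lower quartile, so the size of its difference is uncertain. The pyruvate decarboxylase PDC2 (LOC4332519) read 8.71 and 8.63 in GlcAC and 7.01 and 6.82 in Mtl, 1.75 ± 0.18 higher (adjusted p = 0.000265). Unlike Adh2, PDC2 in Glc (7.99 and 7.98) stood nearer to GlcAC than to Mtl, so that Mtl was the low condition. PDC3 (LOC4344382) was near the lower quartile on all 4 arrays, at 2.32 and 2.42 in GlcAC and 2.01 and 1.74 in Mtl, and its interval lay within the margin.

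Glycolysis had 2 of 12 members higher in GlcAC (16.7%, beside 1.71% of all probes), 1 lower (8.33%, beside 3.46%) and 6 at similar levels (50%, beside 61.6%). The median difference was 0.36, beside 0.06 over all probes. The aldolase FBA3 (LOC4325027) read 9.75 and 9.85 in GlcAC and 8.20 and 8.34 in Mtl, a difference of 1.53 ± 0.18 (adjusted p = 0.000631). The glyceraldehyde-3-phosphate dehydrogenase GAPC3 (LOC4329892) read 5.92 and 6.16 in GlcAC and 4.46 and 4.48 in Mtl, a difference of 1.57 ± 0.22 (adjusted p = 0.00192). For both genes the arrays of the 2 conditions lay well apart, and the parts were unequal but of the same sign (AC 0.94 and sugar 0.59 for FBA3). The lower member was PPDK1 (LOC4338750), a pyruvate phosphate dikinase that can turn pyruvate back to phosphoenolpyruvate, at 1.48 and 1.63 in GlcAC and 3.31 and 3.26 in Mtl (-1.73 ± 0.19, adjusted p = 0.000505). Its GlcAC values were below the lower quartile. A further aldolase, FBA1 (LOC4338737), read 11.23 and 11.11 in GlcAC and 10.29 and 10.14 in Mtl, and its difference of 0.95 ± 0.15 stayed just under the size threshold. It passed with quantile normalization (1.22) and without the second GlcAC or the first Mtl array (1.01 and 1.03).

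Among 11 hexokinases and fructokinases, 2 were higher in GlcAC (18.2%, beside 1.71% of all probes), none was lower and 8 stood at similar levels (72.7%, beside 61.6%). The remaining 1, FKII (LOC4344497), was neither, with a difference of -1.12. The fructokinase FKI (LOC4324962), which phosphorylates fructose, read 7.18 and 7.07 in GlcAC and 5.63 and 5.51 in Mtl, 1.56 ± 0.18 higher (adjusted p = 0.00056). Glc (6.30 and 6.57) and MtlAC (6.49 and 6.46) both lay between, and the AC part of 0.80 and the sugar part of 0.76 were almost equal. The call of the hexokinase HXK1 (LOC4343113), at 3.86 and 3.62 in GlcAC and 2.58 and 2.31 in Mtl, was lost whichever of the 4 arrays was left out (adjusted p between 0.0862 and 0.148).

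The gene farthest apart in favour of GlcAC, among those that could be named, belongs to lignin synthesis. CAD7 (LOC4336968, also FC1), a cinnamyl alcohol dehydrogenase that makes monolignols, read 9.38 and 9.21 in GlcAC and 3.95 and 3.49 in Mtl. The difference was 5.58 ± 0.26, a 47.8-fold higher level (adjusted p = 4.74e-06). The conditions fell into a clear order, with MtlAC at 8.14 and 7.69 and Glc at 5.35 and 5.66 between them, and the AC part (3.99) was larger than the sugar part (1.59). CCR1 (LOC4331085), a cinnamoyl-CoA reductase of the preceding step, read 5.10 and 4.93 in GlcAC and 2.26 and 2.18 in Mtl (2.80 ± 0.30, adjusted p = 0.000411). The CCR1 values of Mtl lay around the lower quartile, so the size of its difference is uncertain. CAD7 and CCR1 were the only 2 of 17 lignin and phenylpropanoid genes that were higher (11.8%, beside 1.71% of all probes), and 3 were lower (17.6%, beside 3.46%). CAD8A (LOC4346988) was lower, at 2.36 and 2.42 in GlcAC and 4.18 and 3.95 in Mtl, as was CAD (LOC4328552), at 4.72 and 4.92 in GlcAC and 6.02 and 5.78 in Mtl. The other lower member, the phenylalanine ammonia-lyase PAL06 (LOC4330040; 2.25 and 1.77 in GlcAC, 3.94 and 3.77 in Mtl), lost its call without the second GlcAC array (adjusted p = 0.102) or without either Mtl array (0.095 and 0.0619). Without the first Mtl array, 1 member of the list was lower. The median of the 17 was -0.05, and the list was chosen after its values were seen.

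The other genes of the highest 12 included a phosphoenolpyruvate carrier and an acyltransferase. PPT3 (LOC4327644), which is named as a plastid phosphoenolpyruvate/phosphate translocator, read 6.52 and 6.57 in GlcAC and 2.99 and 2.64 in Mtl, 13.3-fold higher (3.73 ± 0.18, adjusted p = 6.03e-06). GlcAC stood alone for this gene, with MtlAC at 4.14 and 4.00 and Glc at 3.33 and 3.01. AT10 (LOC4341427), of the acyltransferase family that adds hydroxycinnamates to cell wall arabinoxylan, read 4.74 and 4.77 in GlcAC and 1.65 and 1.23 in Mtl, 3.32 ± 0.37 higher (adjusted p = 0.000476). Its Mtl values were below the lower quartile, so the size of that difference and its rank are uncertain. DWARF (LOC4333399, CYP85A1), a brassinosteroid C-6 oxidase, was likewise high in GlcAC alone, at 6.03 and 6.30, against 4.00 and 3.89 in Mtl (2.22 ± 0.20, adjusted p = 0.000147). In MtlAC it read 4.34 and 4.48 and in Glc 3.74 and 4.05, so neither glucose in air nor AC without glucose reached the GlcAC level. The transporter ABCG39 (LOC4328687) read 4.83 and 4.98 in GlcAC and 2.49 and 2.71 in Mtl, and RH3 (LOC4324051), which is named here without a role, 5.19 and 5.23 in GlcAC and 2.82 and 2.94 in Mtl. Both followed air.

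**Figure D3:**
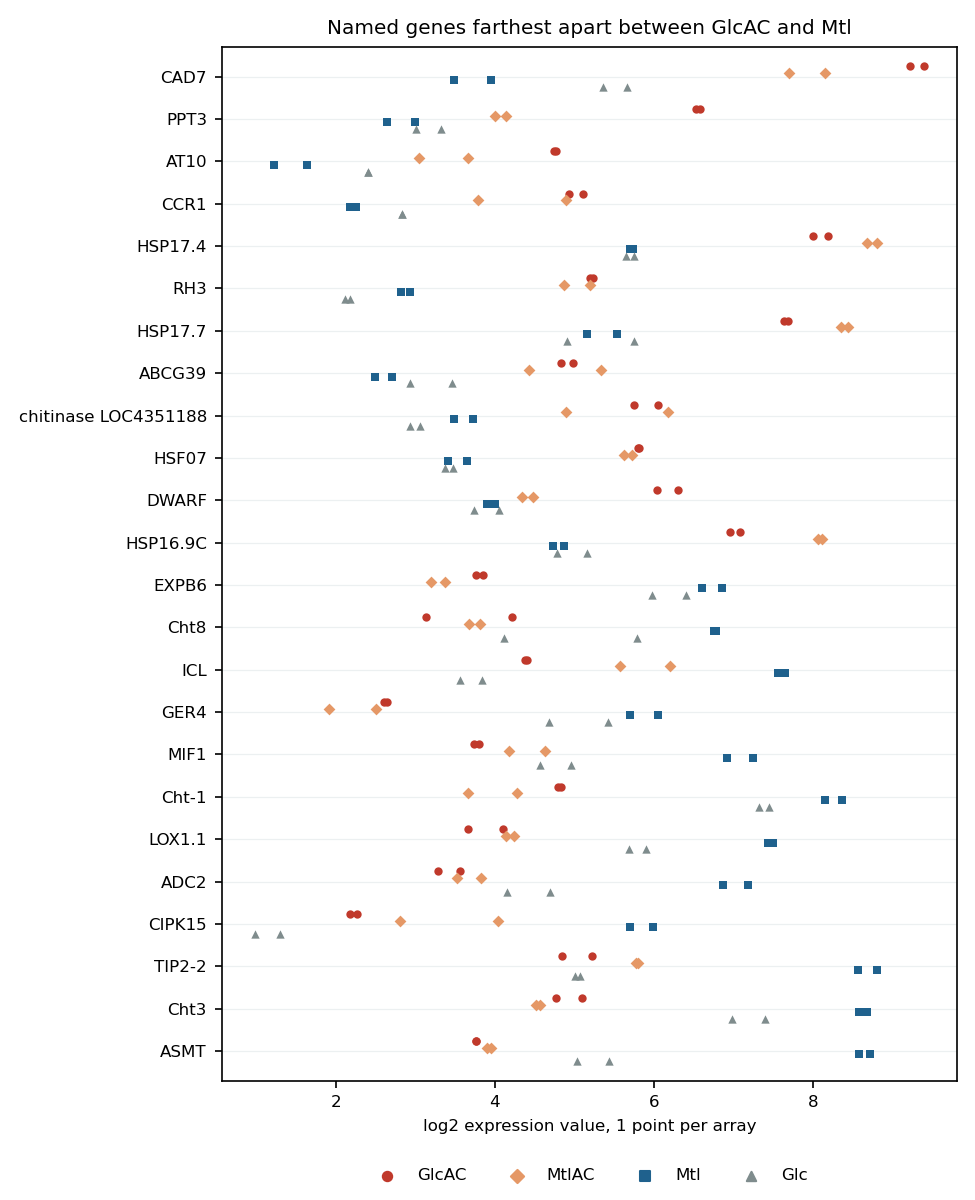
Each row is 1 of the 12 highest and 12 lowest named genes by GlcAC minus Mtl, and each point is the log2 expression value (x axis) on 1 array. GlcAC (red) and Mtl (blue) do not overlap in any row, by the rule that chose them. For HSP17.4, HSP17.7 and HSP16.9C MtlAC lies above GlcAC, and for TIP2-2, ASMT and ADC2 Mtl lies apart from the other 3 conditions. CIPK15 and ICL are also sorted as Mtl apart, but their MtlAC arrays lie between GlcAC and Mtl.

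Among the lists, that of heat shock proteins had the most genes higher in GlcAC: 15 of 24 were higher (62.5%), beside 1.71% of all probes, and 1 was lower, with a median difference of 1.37. The heat shock genes were divided into proteins and factors after their values were seen, so neither count is independent of them. These proteins hold unfolded proteins in a soluble state or refold them. HSP17.4 (LOC4332360) read 8.19 and 7.99 in GlcAC and 5.70 and 5.73 in Mtl, 5.18-fold higher (2.37 ± 0.16, adjusted p = 2.61e-05). HSP16.9C (LOC4325696) read 6.95 and 7.07 in GlcAC and 4.87 and 4.73 in Mtl (2.21 ± 0.18, adjusted p = 7.23e-05). In both genes the Glc arrays (5.65 and 5.75 for HSP17.4) lay at the Mtl level, and the MtlAC arrays (8.79 and 8.68) lay above GlcAC. CLPB1 (LOC4339343), a disaggregase of the Hsp100 class, read 5.77 and 5.82 in GlcAC and 4.50 and 4.05 in Mtl (1.52 ± 0.22, adjusted p = 0.00267). All 16 called members followed air, and over the 24 members the median AC part was 1.74 and the median sugar part -0.33. The 1 lower member, HSP17.9B (LOC4325695), ran the other way in every condition, at 5.08 and 4.94 in GlcAC, 4.19 and 3.64 in MtlAC, 7.03 and 6.90 in Mtl and 7.82 and 8.08 in Glc. Several of these genes are close family members, and how far their probes share signal was not tested.

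Heat shock factors, the transcription factors that act on such genes, were higher at 3 of 22 members (13.6%, beside 1.71% of all probes), lower at none and similar at 10 (45.5%, beside 61.6%). HSF07 (LOC4329526, HSFA3) read 5.80 and 5.81 in GlcAC and 3.65 and 3.41 in Mtl, 2.28 ± 0.19 higher (adjusted p = 9.76e-05). HSF10 (LOC4339409) read 5.53 and 5.62 in GlcAC and 4.17 and 3.95 in Mtl, 1.52 ± 0.20 higher (adjusted p = 0.00119). Both were low in Glc and high in MtlAC. HSF22 (LOC4347251) behaved otherwise: at 4.99 and 5.01 in GlcAC and 3.62 and 4.01 in Mtl, it was highest in Glc (5.47 and 5.88) and low in MtlAC (3.77 and 3.71), so it followed sugar. Its call was lost without either GlcAC array (adjusted p = 0.0989 and 0.106) or the first Mtl array (0.155).

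Factors known from dehydration and cold were also higher in GlcAC where they were called. Of 12 DREB factors, which bind dehydration-responsive elements, 3 were higher in GlcAC (beside 1.71% of all probes) and none was lower. Of the 12, 5 were similar (41.7%, beside 61.6% of all probes). DREB1I (LOC4346220) read 8.39 and 8.25 in GlcAC and 6.60 and 6.53 in Mtl (1.75 ± 0.19, adjusted p = 0.000353). Here both shortages stood above Glc (4.59 and 4.68), and MtlAC, which had neither glucose nor air, was the highest at 9.77 and 9.84. DREB1J (LOC4346219) read 6.33 and 6.12 in GlcAC and 4.69 and 4.44 in Mtl, and unlike DREB1I its Mtl level was that of Glc (4.60 and 4.53). DREB2B (LOC4338484; 6.47 and 6.60 in GlcAC, 5.21 and 5.57 in Mtl) fell short of the size threshold without the first Mtl array, at 0.97. WRKY62 (LOC4347070), of the WRKY factors, read 6.88 and 6.84 in GlcAC and 5.59 and 5.51 in Mtl (1.31 ± 0.20, adjusted p = 0.00308). It was 1 of 2 called among 6, both higher (33.3%, beside 1.71% of all probes). The other, WRKY24 (LOC4327518), read 5.45 and 5.58 in GlcAC and 4.25 and 4.58 in Mtl. Its difference was 0.93 without the first Mtl array, under the threshold.

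Late embryogenesis abundant (LEA) proteins, which protect cells during drying, were higher at 4 of 9 members (44.4%, beside 1.71% of all probes), with 2 similar (22.2%, beside 61.6%) and a median of 0.73. EM (LOC4338499) read 7.14 and 7.16 in GlcAC and 6.04 and 5.88 in Mtl (1.19 ± 0.17, adjusted p = 0.00208), and RAB16C, Dhn1 and RAB16B differed by 1.17, 1.08 and 1.08. All 4 followed air and were still higher in MtlAC, at 7.90 and 7.62 for EM. The 1 member below 0, RAB21 (LOC4350454), differed by -0.55 and was not called. ABA8OX1 (LOC9269675), an abscisic acid 8'-hydroxylase that inactivates the hormone, read 7.85 and 7.87 in GlcAC and 6.16 and 6.39 in Mtl (1.58 ± 0.24, adjusted p = 0.00284). It was the only called gene of 7 in abscisic acid metabolism and perception (14.3%, beside 5.17% of all probes), of which 5 were similar (71.4%, beside 61.6%). NCED3 (LOC4333566), which makes a precursor of the hormone, read 3.52 and 3.66 in GlcAC and 2.82 and 2.88 in Mtl, under the size threshold.

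Some of the genes lower in GlcAC had large sugar parts, although the AC part was the larger for 80.0% of all lower probes. The sugar-starvation route to RAmy3D held both called and similar members. RAmy3D (LOC4345814) was high in both shortages but higher without sugar, at 6.68 and 6.45 in GlcAC and 7.82 and 7.81 in Mtl (-1.25 ± 0.16, adjusted p = 0.00117). Against Glc, at 3.36 and 3.24, the GlcAC level was 3.27 higher and the Mtl level 4.52 higher (adjusted p = 6.12e-06 and 1.87e-06, from contrasts that share the Glc arrays). MtlAC was the highest of the 4 conditions, at 8.40 and 8.48. The other 5 α-amylase genes stood at similar levels, all but 1 of them near or below the lower quartile, and that 1, RAmy3E (LOC4345812), read 2.55 and 2.77 in GlcAC and 2.53 and 2.91 in Mtl.

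CIPK15 (LOC4349594) was the kinase gene of this route that told the 2 conditions apart. It read 2.27 and 2.18 in GlcAC and 5.70 and 5.99 in Mtl, 12.3-fold lower in GlcAC (-3.62 ± 0.33, adjusted p = 0.000166). MtlAC lay between but its arrays differed (2.81 and 4.04), and Glc was lowest (1.31 and 0.99). The sugar part of -2.95 was larger than the AC part of -0.67. That AC part averages a higher level under AC with glucose and a lower level under AC with mannitol. CIPK14 (LOC4351307), a kinase of the same family, read 1.86 and 2.21 in GlcAC and 4.21 and 5.06 in Mtl (-2.60 ± 0.28, adjusted p = 0.000426). The GlcAC values of CIPK15 and of CIPK14 lay around the lower quartile, and the Glc values of CIPK15 lay below it. The sizes of these differences, and of the CIPK15 parts, are therefore uncertain. Whether probes of related kinases share signal was not tested. The other 27 CIPK genes were not called, so 2 of 29 were lower (6.90%, beside 3.46% of all probes), and 22 were similar (75.9%, beside 61.6%). SnRK1A (LOC4339410), the kinase on which both shortages act, stood at 5.82 and 5.69 in GlcAC and 5.70 and 5.57 in Mtl, with an interval within the margin. MYBS1 (LOC4323963), the factor that binds the RAmy3D promoter, read 3.61 and 4.15 in GlcAC and 4.41 and 4.30 in Mtl and was neither called nor similar, whereas MYBS2 and MYBS3 were similar.

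Genes of carbon salvage were lower in GlcAC at the 1 listed gene of the glyoxylate cycle and at 4 of 5 of amino acid catabolism. ICL (LOC4343441), the isocitrate lyase of the glyoxylate cycle, read 4.37 and 4.40 in GlcAC and 7.65 and 7.55 in Mtl, 9.28-fold lower (-3.21 ± 0.22, adjusted p = 2.93e-05). It was low in Glc (3.83 and 3.57) and intermediate in MtlAC (5.56 and 6.20), and its sugar part was -2.70, its AC part -0.52. The AC part of ICL averages a higher level under AC with glucose and a lower level under AC with mannitol. Of 5 genes of amino acid catabolism, 4 were lower (80%, beside 3.46% of all probes) and 1 was similar (20%, beside 61.6%), with a median of -1.42. IVD (LOC4337676), the isovaleryl-CoA dehydrogenase of leucine breakdown, read 6.48 and 6.35 in GlcAC and 8.31 and 8.28 in Mtl (-1.88 ± 0.16, adjusted p = 0.000122). MCCA (LOC4352741), a methylcrotonoyl-CoA carboxylase subunit of the same pathway, read 4.69 and 4.85 in GlcAC and 6.84 and 7.19 in Mtl (-2.25 ± 0.22, adjusted p = 0.000203). Both followed sugar by the sorting, but for IVD the MtlAC arrays (7.46 and 7.53) were intermediate and only somewhat nearer to Mtl, while Glc read 5.91 and 6.12. The glutamate dehydrogenases were less firm. GDH2 (LOC4336554; 3.28 and 3.19 in GlcAC, 4.34 and 4.96 in Mtl) lost its call without either GlcAC array or the second Mtl array (adjusted p = 0.0559, 0.0712 and 0.0798). GDH1 (LOC4334405; 3.68 and 3.71 in GlcAC, 5.85 and 4.38 in Mtl) lost it without either GlcAC array or the first Mtl array (0.176, 0.16 and 0.166). Without either GlcAC array, 2 members were called.

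Trehalose metabolism, sucrose cleavage and sugar transport gave 5 calls, 1 higher and 4 lower in GlcAC, and their called shares of 12.5%, 11.8% and 8.70% stood beside 5.17% of all probes. In the same order, 62.5%, 64.7% and 43.5% were similar, beside 61.6% of all probes. OsTPP2 (LOC4349333), a trehalose-6-phosphate phosphatase, read 3.41 and 3.32 in GlcAC and 5.57 and 5.76 in Mtl (-2.31 ± 0.19, adjusted p = 8.91e-05), with Glc and MtlAC at the GlcAC level. It was the only called gene of 8 in trehalose metabolism, of which 5 were similar. The invertase CIN2 (LOC4335790), which splits sucrose in the cell wall, read 3.30 and 3.55 in GlcAC and 5.44 and 4.64 in Mtl (-1.61 ± 0.26, adjusted p = 0.00389). Of 17 genes of sucrose cleavage, 2 were lower and 11 were similar; the other lower one, CINV1 (LOC4329626; 5.83 and 6.08 in GlcAC, 7.19 and 7.04 in Mtl), was lost without the first GlcAC or the first Mtl array (adjusted p = 0.0731 and 0.0712). Of 23 transporters of sugars and sugar phosphates, PPT3 was higher and MST3 (LOC4342198; 5.53 and 5.42 in GlcAC, 6.91 and 6.59 in Mtl) was lower. The call of MST3 was lost without any 1 of the 4 arrays (adjusted p between 0.0581 and 0.141), and 10 transporters were similar.

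Genes of the tricarboxylic acid cycle had no call, and an alternative oxidase and a hemoglobin were lower in GlcAC. None of the 11 genes of the tricarboxylic acid cycle was called in limma or with its treat test, and 6 had an unadjusted p under 0.05. With 5.17% of all probes called in limma, a list of this size says little by having no call. Of the 11, 10 were below 0 (beside 16483 of all 36643 probes) and 7 were similar (63.6%, beside 61.6% of all probes), with a median of -0.48. SDH3-1 (LOC4328125), a succinate dehydrogenase subunit, was the member farthest from 0, at 6.42 and 6.31 in GlcAC and 7.19 and 7.11 in Mtl. The median parts were -0.73 for AC and 0.33 for sugar, of opposite sign. AOX1 (LOC4336874), an alternative oxidase that passes electrons to oxygen without pumping protons, read 5.81 and 5.76 in GlcAC and 7.22 and 7.06 in Mtl (-1.36 ± 0.19, adjusted p = 0.00202). Its sugar part was -0.05, and Glc (a mean of 7.23) and MtlAC (5.88 and 6.04) paired with Mtl and GlcAC by air. The hemoglobin NSHB1 (LOC4332166), of the non-symbiotic class that binds oxygen tightly, gave the same order, with 6.69 and 6.63 in GlcAC and 8.25 and 8.06 in Mtl (-1.49 ± 0.20, adjusted p = 0.00146). The 3 other hemoglobin genes were similar.

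Antioxidant genes split in both directions: of 44, 3 were higher (6.82%, beside 1.71% of all probes), 5 lower (11.4%, beside 3.46%) and 24 similar (54.5%, beside 61.6%). CAT-A (LOC4328073), a catalase that removes hydrogen peroxide, read 3.27 and 3.05 in GlcAC and 5.62 and 5.55 in Mtl (-2.43 ± 0.22, adjusted p = 0.000136). Mtl was the only high condition for it, with Glc at 3.01 and 3.27 and MtlAC at 3.68 and 3.30. GRXC4 (LOC4329999), a glutaredoxin, read 7.40 and 7.40 in GlcAC and 5.44 and 5.51 in Mtl (1.93 ± 0.20, adjusted p = 0.000288) and followed air. GSTU1 (LOC4334347), a glutathione transferase, read 7.19 and 7.11 in GlcAC and 5.45 and 5.49 in Mtl (1.67 ± 0.17, adjusted p = 0.000275). It is 1 of the 30 higher probes that followed sugar, at 6.88 and 6.75 in Glc and 5.53 and 5.43 in MtlAC, and its AC part was 0.17. The ascorbate peroxidases APX2 and APX4 (differences of -1.22 and -1.02) and the superoxide dismutase cuznsod1 (-1.29) were lower, all following air. Without the first GlcAC array, 3 antioxidant genes were lower.

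Some water channels and wall-loosening proteins were lower in GlcAC, and none was called higher. Of 27 aquaporins, 7 were lower (25.9%, beside 3.46% of all probes), 13 were similar (48.1%, beside 61.6%) and 7 were neither, with differences up to 0.67. TIP2-2 (LOC4340941), a channel of the vacuolar membrane, read 5.23 and 4.84 in GlcAC and 8.80 and 8.56 in Mtl, 12.5-fold lower (-3.65 ± 0.21, adjusted p = 1.16e-05). Mtl stood alone: the Glc arrays (5.00 and 5.07) lay between the 2 GlcAC arrays, and MtlAC read 5.80 and 5.77. PIP1-2 (LOC9270874), of the plasma membrane class, read 4.84 and 5.27 in GlcAC and 8.05 and 7.78 in Mtl (-2.86 ± 0.20, adjusted p = 3.62e-05), with Mtl again apart. PIP2-1 (LOC4343122) read 7.24 and 7.26 in GlcAC and 8.79 and 8.65 in Mtl (-1.47 ± 0.16, adjusted p = 0.000465), but followed air, with Glc at 8.59 and 8.57. The aquaporins thus held both patterns, 4 with Mtl apart and 3 following air. Of 46 expansins, which loosen cell walls during growth, 8 were lower (beside 3.46% of all probes), none was higher and 24 were similar (52.2%). The remaining 14 were neither, and the differences reached 0.80; with 1.71% of all probes higher, a list of this size says little by having none. EXPB6 (LOC4349347) read 3.85 and 3.76 in GlcAC and 6.86 and 6.61 in Mtl (-2.93 ± 0.21, adjusted p = 3.87e-05), with a sugar part of -0.01. EXPB3, EXPB2 and EXPB4, also beta expansins, were lower too, with differences of -2.57, -1.77 and -1.72.

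ASMT (LOC4346795), an acetylserotonin O-methyltransferase of melatonin synthesis, was the lowest named gene, at 3.77 and 3.77 in GlcAC and 8.58 and 8.70 in Mtl, 29.3-fold lower (-4.87 ± 0.22, adjusted p = 4.7e-06). Glc (5.03 and 5.43) and MtlAC (3.95 and 3.90) were both far below Mtl, and the parts were -3.09 for AC and -1.78 for sugar. ADC2 (LOC4334917), an arginine decarboxylase of polyamine synthesis, read 3.29 and 3.56 in GlcAC and 7.18 and 6.87 in Mtl (-3.60 ± 0.24, adjusted p = 2.36e-05), also with Mtl apart. MIF1 (LOC4349655), named without a role here, read 3.73 and 3.79 in GlcAC and 7.24 and 6.91 in Mtl, and GER4 (LOC4327911), likewise, 2.64 and 2.61 in GlcAC and 6.05 and 5.70 in Mtl. Mtl was apart for MIF1, while GER4 followed air.

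Of 14 chitinases, which cut the chitin of fungal walls, 5 were lower in GlcAC (35.7%, beside 3.46% of all probes), 1 was higher and 7 were similar (50.0%, beside 61.6%). Cht3 (LOC4342114) read 4.76 and 5.10 in GlcAC and 8.57 and 8.67 in Mtl (-3.69 ± 0.22, adjusted p = 1.55e-05). Cht-1 (LOC4342115) read 4.83 and 4.80 in GlcAC and 8.35 and 8.14 in Mtl (-3.44 ± 0.22, adjusted p = 2.08e-05), with an AC part of -3.42 and a sugar part of -0.01. Cht8 (LOC4349267) read 3.13 and 4.22 in GlcAC and 6.78 and 6.75 in Mtl, with a wider error (-3.09 ± 0.51, adjusted p = 0.00474). The higher gene, a chitinase listed as LOC4351188, read 5.75 and 6.05 in GlcAC and 3.48 and 3.72 in Mtl (2.30 ± 0.34, adjusted p = 0.00275), so the family held genes at both ends. Of 34 genes of lipoxygenase and jasmonate metabolism and signalling, 7 were lower (20.6%, beside 3.46% of all probes), none was higher and 20 were similar (58.8%, near the 61.6% of all probes). The lipoxygenase LOX1.1 (LOC4334049), which oxidises fatty acids, read 3.67 and 4.10 in GlcAC and 7.43 and 7.49 in Mtl (-3.58 ± 0.19, adjusted p = 8.43e-06). The cyclase aoc (LOC4333201), on the route to jasmonate, read 5.52 and 5.61 in GlcAC and 7.03 and 6.86 in Mtl (-1.38 ± 0.24, adjusted p = 0.00717). The chitinase and jasmonate lists were chosen after their values were seen.

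**Figure D4:**
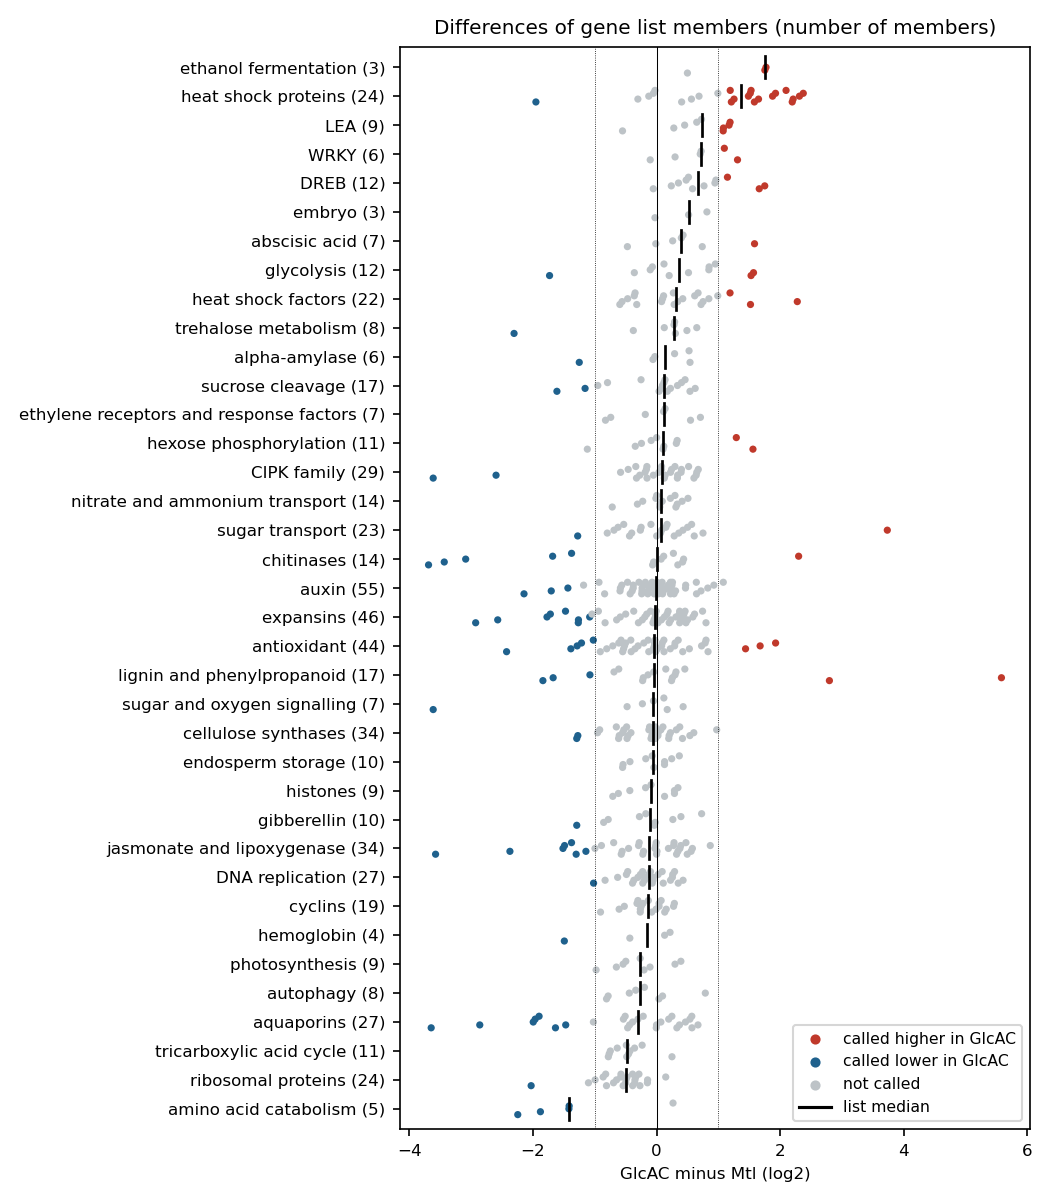
Each point is 1 gene of a list (lists of 3 or more genes are drawn), placed by GlcAC minus Mtl (x axis, log2), and each black bar is the list's median; dotted lines mark -1 and 1 and the number of members stands in brackets. The medians of ethanol fermentation (1.75) and heat shock proteins (1.37) lie farthest right of those drawn and that of amino acid catabolism (-1.42) farthest left, and most medians lie near that of all probes (0.06).

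The shares of similar genes among growth and housekeeping lists lay on both sides of the 61.6% of all probes. Of 27 DNA replication genes 21 were similar (77.8%), of 19 cyclins 16 (84.2%), of 14 nitrate and ammonium transport genes 12 (85.7%) and of 55 auxin genes 42 (76.4%). Of 34 cellulose synthases and related genes 22 were similar (64.7%), near the share of all probes, and 14 of 24 ribosomal proteins (58.3%) and 5 of 9 histones (55.6%) were similar. No cyclin and no histone of 9 was called in limma (beside 5.17% of all probes) or with treat, and 3 cyclins and 2 histones had an unadjusted p under 0.05. The replication gene that was called, MCM3 (LOC4339099; 1.46 and 1.57 in GlcAC, 2.54 and 2.53 in Mtl), lost its call with the replicate block (adjusted p = 0.0593) and without any 1 of the 4 arrays (between 0.151 and 0.207). The auxin response repressor IAA6 (LOC4326541) was the lowest auxin gene, at 3.20 and 3.02 in GlcAC and 5.14 and 5.37 in Mtl (-2.15 ± 0.17, adjusted p = 8.35e-05). Ribosomal protein genes gave 1 lower of 24 (4.17%, near the 3.46% of all probes), RPL18 (LOC4334651). RPL18 read 5.56 and 5.44 in GlcAC and 7.52 and 7.54 in Mtl (-2.03 ± 0.21, adjusted p = 0.000333 in limma). Of the 24, 23 were below 0 (beside 16483 of all 36643 probes), with a median of -0.50. RPS21 (LOC4332813), at -1.10, was not called in the main fit. It was called with the replicate block, without dim probes and with a trended robust fit. RPL3 (LOC4351604), at -0.995, stood at -1.14 without the second GlcAC array and -1.01 without the second Mtl array. The median parts of the 24, -1.08 for AC and 0.44 for sugar, had opposite signs. Autophagy genes, which serve the breakdown of cell contents, had no call among 8 (beside 5.17% of all probes). Of these, 5 were similar (62.5%) and 4 had an unadjusted p under 0.05. Ethylene receptors and response factors had no call among 7, of which 3 were similar (42.9%) and 4 had an unadjusted p under 0.05. At the share of all probes, the cyclin, histone, autophagy and ethylene lists say little by having no call. Over all probes, 8696 had an unadjusted p under 0.05.

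Genes at similar levels in both conditions need not be indifferent to them. Among similar probes, the mean of GlcAC and Mtl lay more than 1 above Glc for 80 and more than 1 below for 131. OsTPP1 (LOC4330221), a trehalose-6-phosphate phosphatase like OsTPP2, read 6.90 and 6.95 in GlcAC and 6.80 and 6.80 in Mtl, against 3.81 and 3.99 in Glc. GlcAC exceeded Mtl by 0.12 ± 0.17, with an interval of -0.26 to 0.51, while they stood above Glc by 3.03 and 2.90 (adjusted p = 1.26e-05 and 2.12e-05). The sum of the parts hid 2 larger ones of opposite sign, 1.13 for AC and -1.01 for sugar. The hexokinase HXK6 (LOC4338010) read 4.09 and 4.56 in GlcAC and 4.09 and 3.92 in Mtl, against 1.53 and 1.58 in Glc, and was highest in MtlAC at 5.24 and 5.79. The Glc values of HXK6 were below the lower quartile, so the size of its distance from Glc is uncertain. ML (LOC4326471, also salT), which codes for a lectin induced by salt, read 11.13 and 11.09 in GlcAC, 11.62 and 11.56 in Mtl and 9.16 and 9.21 in Glc. The expansin-like EXLA1 (LOC4331516) read 7.03 and 7.14 in GlcAC, 7.68 and 7.68 in Mtl and 5.20 and 5.20 in Glc; its difference of -0.59 ± 0.15 had an adjusted p of 0.0401 yet an interval inside the margin, so it was both small and detectable. SMR1, HAP3F, ADF-3 and CPK7 completed the 8 genes farthest above Glc, whose mean over both conditions was 1.06 to 1.18 above Glc.

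The 8 similar genes farthest below Glc were led by NAR2.2 (LOC4336175), a partner protein of nitrate transporters, at 3.14 and 3.25 in GlcAC and 3.37 and 3.05 in Mtl, against 5.07 and 4.66 in Glc. GlcAC and Mtl differed by -0.01 ± 0.21 and lay -1.67 and -1.66 from Glc (adjusted p = 0.00114 and 0.00193). QHB (LOC4324824, OsWOX9), a homeobox factor of the root quiescent centre, read 4.18 and 4.50 in GlcAC and 4.43 and 4.52 in Mtl, against 6.03 and 5.83 in Glc. ORC3 (LOC4348571), of the origin recognition complex, and PRX74 were below the lower quartile in both conditions and above 3 in Glc. GLN1-1 (LOC4330649), a cytosolic glutamine synthetase, read 7.62 and 7.74 in GlcAC and 7.97 and 7.58 in Mtl, against 8.90 and 9.11 in Glc; the Mtl difference from Glc was -1.23 with an adjusted p of 0.067, so that for this gene 1 of the 2 contrasts with Glc missed the threshold.

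**Figure D5:**
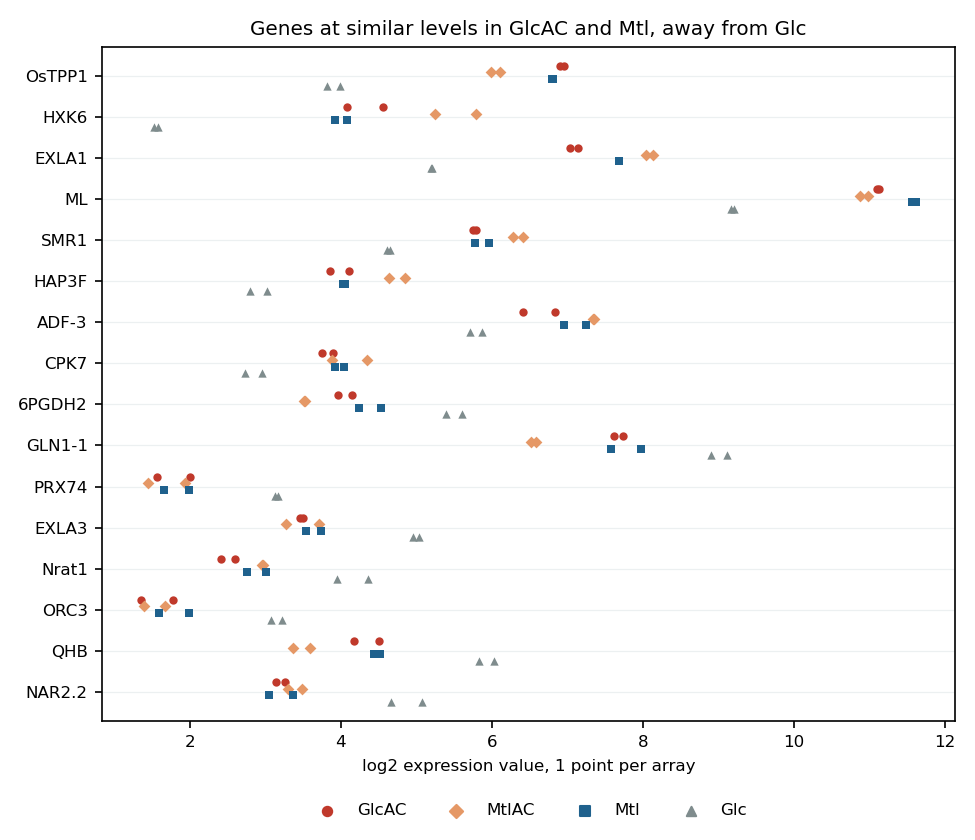
Each row is 1 of the 16 named genes at similar levels in GlcAC (red) and Mtl (blue) that lie farthest from Glc (grey), and each point is the log2 expression value (x axis) on 1 array. For OsTPP1 and HXK6 the GlcAC and Mtl arrays lie more than 2 above Glc, although the Glc values of HXK6 are below the lower quartile and that size is uncertain. In all 16 rows the Glc arrays lie to one side of GlcAC and Mtl, with MtlAC (orange) on the same side as GlcAC and Mtl.

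Near the size threshold the calls rest on small margins. Just inside it were CML16 (1.03), OC-VI (1.01), and, on the lower side, KIN14C (2.11 and 2.25 in GlcAC, 3.08 and 3.28 in Mtl) and actin-6 (3.62 and 3.66 in GlcAC, 4.91 and 4.38 in Mtl). Just outside were PNP2 (0.99), HSP17.8 (0.99) and, on the lower side, BURP12 (3.57 and 3.19 in GlcAC, 4.42 and 4.33 in Mtl) and AOS (1.99 and 2.11 in GlcAC, 2.88 and 3.22 in Mtl), all with adjusted p under 0.05. All 4 just inside lost their calls without at least 1 array.

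The DNP arrays, which had air and an uncoupler, are described for a few genes picked from those above. No contrast with DNP was tested. HSP17.4 read 8.79 and 8.75 in GlcDNP and 8.74 and 8.59 in MtlDNP, at the MtlAC level, whereas CAD7 read 4.70 and 4.51 in GlcDNP and 5.31 and 4.74 in MtlDNP, between Mtl and Glc and far below GlcAC. PDC2 read 6.21 and 6.51 in GlcDNP and 6.46 and 6.30 in MtlDNP, below Mtl on all 4 arrays. RAmy3D read 5.61 and 5.53 in GlcDNP and 5.40 and 5.54 in MtlDNP, between Glc and both compared conditions. CIPK15 and ICL, high in Mtl, were not high in MtlDNP, at 1.74 and 1.88 for CIPK15 and 4.27 and 4.00 for ICL. The CIPK15 values of MtlDNP were below the lower quartile.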

How the data were processed

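Total RNA was measured on 12 arrays, 2 for each of 6 conditions, and samples were grouped by the condition in their labels. Per the labels, the deposited log2 values came from RMA in Expression Console, summarized at the core level; the submitters' processing notes also name Affymetrix Power Tools. Software versions, the annotation and the build: not given in the sources used here. Base 2 of the logarithm was inferred from values that ran between -0.49 and 13.12. RMA equalizes the arrays' intensity distributions before it summarizes them, so a shift common to most genes would not be seen. The summarized values still differed in spread, with standard deviations within arrays of 1.77 and 1.77 in GlcAC and 1.85 and 1.83 in Mtl. With quantile normalization of these values, 1006 probes were lower (1269 as deposited) and 625 higher (627 as deposited). The number of arrays limits the precision.

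Of 36643 probes, 24161 had 1 gene in the platform's table, 90 had several and 2743 had an informative symbol or synonym in RefSeq's table of rice genes (GCF_034140825.1), used for names only, with no coordinates. Only these were named. limma 3.58.1 in R 4.3.3 fitted 1 coefficient per condition over all 12 arrays (6 residual and 3.82 prior degrees of freedom), with Benjamini-Hochberg adjustment over all probes, and was tested on simulated data. Named were the 12 called genes farthest apart each way, up to 4 members of each list or all of a list of up to 12, the 8 similar genes farthest above and below Glc, and the 2 nearest the size threshold on each side. The members, lists and tests were chosen with earlier results of these data known, and 5 lists (chitinases, lignin and phenylpropanoid, jasmonate, and heat shock proteins and factors, split from 1 list) and the sorting into AC and sugar parts were set after the values were seen. Lists were matched by symbol and are incomplete. No set test was run. Replicate numbers are not said to mark a batch, and same-numbered GlcAC and Mtl arrays did not deviate together over probes (r = -0.02).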

Additional observations from a re-analysis of the deposited data

How the results depend on the processing

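With 2 arrays per condition, which may hold the same RNA, and levels near the array's floor for many genes, small differences were not resolved. The main counts were 1896 called probes (627 higher and 1269 lower in GlcAC), 22576 similar probes and 100 called list members, and no setting gave a call of opposite sign. Limma's treat, which tests against the size threshold itself, called 300 probes, 103 higher and 197 lower, and 27 list members. A margin of 0.5 in place of 1 left 2260 similar probes. Leaving out each array in turn gave 1209 to 1388 called probes, 450 to 491 higher and 759 to 920 lower, 16289 to 17142 similar probes and 83 to 92 list members; between 58.3% and 63.6% of the called probes stayed called. The lone array of a condition was then assumed to vary like the others. The 4 arrays fitted alone called 1933 probes, quantile normalization 1631, of which 61.7% were lower (66.9% with the deposited scaling), removal of dim probes 1893 of 27482, and a trended robust fit 1948. With the replicate block, 1908 were called (629 higher, 1279 lower), with 22796 similar probes and 101 list members. The replicate numbers are only shared numbers (correlation of deviations -0.02), and among named genes the block ended the call of MCM3 and gave calls to RPS21 and IAA17. Of 87 called genes named by the rule, 36 kept the call with treat and 69 to 76 when an array was left out.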

Other observations

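A few genes without an informative name lay as far apart as the named ones, chosen after their values were seen. LOC4347408 read 8.79 and 8.79 in GlcAC and 3.32 and 3.26 in Mtl, 5.49 ± 0.20 higher (SE; adjusted p = 2.84e-06), with MtlAC at 8.33 and 8.48 and Glc at 4.95 and 5.18. LOC4347412 read 8.97 and 9.22 in GlcAC and 4.34 and 3.64 in Mtl, 5.11 ± 0.24 higher (adjusted p = 5.03e-06). Both had MtlAC near GlcAC. LOC4332796 read 4.76 and 5.54 in GlcAC and 10.07 and 10.29 in Mtl (-5.04 ± 0.27, adjusted p = 8.14e-06), with Glc at 7.53 and 7.83 and MtlAC at 6.04 and 6.04. LOC4352104 read 4.86 and 4.58 in GlcAC and 9.27 and 9.26 in Mtl (-4.54 ± 0.18, adjusted p = 3.47e-06), and for it the sugar part of -3.39 was larger than the AC part of -1.15.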
